A study of Homo sapiens with 12 samples.

Results

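The peaks of chromosome 13 were chosen by their lower share in LDHA-inhibitor-resistant cells, so that contrast is given as a description, without a test. In all, 15332 of the 671854 peaks that 12 ATAC-seq libraries placed on chromosomes 1 to 22 and X (2.28%) lay on chromosome 13. ATAC-seq marks open chromatin by the insertions of the Tn5 transposase, and broad peaks were listed for every library separately. The cells were MIAPaCa2, an established pancreatic ductal adenocarcinoma line. The 4 groups of 3 libraries were parental cells untreated, parental cells given the LDHA inhibitor, cells resistant to that inhibitor left untreated, and resistant cells given it. The inhibitor was oxamate, a pyruvate analogue that blocks lactate dehydrogenase A, the enzyme that turns pyruvate into lactate. The resistant cells were a polyclonal population obtained by continuous culture in oxamate, and no other difference in genotype or treatment between the groups is given. Nothing in the sample labels says whether replicates came from separate cultures, so p-values measure the spread between libraries, which may be technical.

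Chromosome 13 is an acrocentric chromosome: its short arm is made of repeated sequence and ribosomal DNA arrays, and the protein-coding genes lie on the long arm. It carries long gene-poor stretches with genes of neural adhesion beside gene-rich segments that hold tumour suppressors, the insulin-signalling gene IRS2 and the pancreatic transcription factor PDX1. In the GRCh38 assembly the centromeres are filled with modelled arrays of alpha satellite, a tandem repeat, and reads from repeated sequence are hard to place uniquely.

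On this chromosome the first peak of any list started at position 16008366 and the first annotated gene, LOC124903223, at 18176737. The 2.17 Mb between them held no annotated gene and 5407 of the 15332 peaks, and is called the gene-free stretch below. The other 9925 peaks lay beyond it, among 1524 annotated genes of which 336 are protein-coding. The boundary was set after the peaks had been seen, so the stretch and the rest of the chromosome are described with no test and no p-value. The sequence of peaks inside the stretch was not analysed here, nor whether they lie in the modelled arrays of alpha satellite. Promoter windows of 300 bases (250 before and 50 after a start site, RefSeq, GRCh38.p14, written 5' to 3' on the strand of the gene) were read for genes beyond it.

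The following 4 windows belong to genes with a peak within 1 kb of a start site in 3 of 3 untreated and 0 of 3 treated parental libraries. The peak did not always reach the printed window itself: in untreated parental libraries it overlapped the window in 1 of 3 for CDX2, 1 of 3 for SOX21, 2 of 3 for KLF12 and 3 of 3 for GPC5, and in the 6 resistant libraries in 3, 0, 6 and 5 of them. Capitals mark the GC box GGGCGG, bound by Sp and Krüppel-like factors, or its reverse complement CCGCCC. CDX2 lies at chr13:27969266-27969565 (minus strand), SOX21 at chr13:94712496-94712795 (minus), KLF12 at chr13:74134355-74134654 (minus) and GPC5 at chr13:91398371-91398670 (plus).
CDX2: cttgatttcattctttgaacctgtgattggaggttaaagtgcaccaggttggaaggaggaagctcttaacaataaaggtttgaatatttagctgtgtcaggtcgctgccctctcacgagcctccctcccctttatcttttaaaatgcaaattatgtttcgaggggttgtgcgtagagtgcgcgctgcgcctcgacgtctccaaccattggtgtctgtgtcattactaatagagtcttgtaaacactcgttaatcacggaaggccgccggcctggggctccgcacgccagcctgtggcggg
SOX21: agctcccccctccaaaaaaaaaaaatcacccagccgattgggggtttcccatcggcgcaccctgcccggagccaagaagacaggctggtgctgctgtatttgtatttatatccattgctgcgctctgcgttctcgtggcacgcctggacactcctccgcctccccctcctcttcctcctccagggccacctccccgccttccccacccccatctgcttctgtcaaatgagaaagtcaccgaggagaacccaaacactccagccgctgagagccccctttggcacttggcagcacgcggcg
KLF12: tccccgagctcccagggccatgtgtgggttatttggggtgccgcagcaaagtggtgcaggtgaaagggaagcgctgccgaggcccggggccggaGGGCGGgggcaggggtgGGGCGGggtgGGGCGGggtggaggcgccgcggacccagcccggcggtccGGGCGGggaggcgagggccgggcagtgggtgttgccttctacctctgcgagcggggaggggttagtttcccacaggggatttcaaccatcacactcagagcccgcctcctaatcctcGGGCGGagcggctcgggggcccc
GPC5: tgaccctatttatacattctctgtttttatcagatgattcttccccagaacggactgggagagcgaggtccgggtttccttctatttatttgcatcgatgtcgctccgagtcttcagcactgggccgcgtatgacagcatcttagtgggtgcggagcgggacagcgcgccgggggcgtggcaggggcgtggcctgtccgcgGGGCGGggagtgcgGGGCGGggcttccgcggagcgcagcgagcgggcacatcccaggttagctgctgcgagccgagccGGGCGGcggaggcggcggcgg

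For comparison, 2 windows are from genes called in all 12 libraries, FOXO1 at chr13:40666592-40666891 and SLC7A1 at chr13:29595639-29595938, and the last is from EDNRB at chr13:77918782-77919081, the endothelin receptor B gene, with no peak near its start in any library. The 7 genes were picked for printing after their values were seen. All 3 are on the minus strand.
FOXO1: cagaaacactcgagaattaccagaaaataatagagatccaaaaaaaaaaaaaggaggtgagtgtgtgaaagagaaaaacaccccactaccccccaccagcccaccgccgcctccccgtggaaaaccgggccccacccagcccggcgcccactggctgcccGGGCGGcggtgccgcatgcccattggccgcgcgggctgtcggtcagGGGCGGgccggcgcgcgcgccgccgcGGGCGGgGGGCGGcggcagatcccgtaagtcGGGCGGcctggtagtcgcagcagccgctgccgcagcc
SLC7A1: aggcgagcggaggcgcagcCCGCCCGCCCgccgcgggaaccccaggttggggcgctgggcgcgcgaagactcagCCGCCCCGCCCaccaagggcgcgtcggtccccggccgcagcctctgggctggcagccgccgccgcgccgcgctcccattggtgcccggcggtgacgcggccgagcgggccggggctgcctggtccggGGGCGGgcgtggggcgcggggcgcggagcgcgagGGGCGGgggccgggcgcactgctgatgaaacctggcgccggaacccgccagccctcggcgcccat
EDNRB: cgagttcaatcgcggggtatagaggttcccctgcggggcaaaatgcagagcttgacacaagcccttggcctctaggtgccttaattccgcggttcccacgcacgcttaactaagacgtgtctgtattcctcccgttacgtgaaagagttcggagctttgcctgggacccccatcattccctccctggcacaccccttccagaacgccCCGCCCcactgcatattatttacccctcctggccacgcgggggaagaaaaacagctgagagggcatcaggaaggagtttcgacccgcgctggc

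The GC box was found 5 times in the FOXO1 window, 6 times in SLC7A1, 5 times in KLF12, 3 times in GPC5 and once in EDNRB, and not in the windows of CDX2 and SOX21. Of all 34961 promoter windows 45.0% held it, and of the 892 on chromosome 13 35.2% did. The CpG dinucleotide count was 33 in FOXO1, 49 in SLC7A1, 25 in KLF12, 33 in GPC5, 16 in CDX2, 15 in SOX21 and 19 in EDNRB, against a median of 14 over all windows. Over the 299 coding genes of the chromosome with a listed window, 156 had a peak over it in 12 libraries and a median of 30 CpGs, 35 had one in 1 to 11 libraries and a median of 33, and 108 had none and a median of 10. The same medians on the other chromosomes were 28, 23 and 6 over 8432, 2038 and 5043 genes. Where a gene had several windows, the one with a peak in most libraries was taken, and the first by position among ties. Genes with a peak were thus read at a window picked for its peak, so the classes were not compared on like windows. A match of letters is a description and shows no binding.

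The share of a library's peaks on chromosome 13 was 2.28%, 2.21% and 2.40% in the untreated parental libraries and 2.59%, 2.52% and 2.49% in the treated parental ones. It was 2.13%, 2.35% and 2.02% in the untreated resistant libraries and 2.07%, 2.32% and 2.01% in the treated resistant ones. The ranges of the phenotypes overlapped among untreated libraries and did not among treated ones. Exact (Clopper-Pearson) 95% intervals had a half-width of at most 0.147 percentage points and cover counting error only. Parental libraries averaged 2.42% ± 0.147 (SD, n = 6) and resistant libraries 2.15% ± 0.148 (SD, n = 6), a difference of -0.262 percentage points. Among untreated libraries the difference was -0.127 and among treated ones -0.398.

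That difference was the sum of -0.470 percentage points in the gene-free stretch and 0.208 in the rest of the chromosome. In the stretch lay 474, 394 and 601 peaks of the untreated parental libraries, 0.792%, 0.657% and 0.978% of their lists. The treated parental libraries had 584, 797 and 698 there, or 1.28%, 1.28% and 1.27%. Untreated resistant libraries had 337, 466 and 241, or 0.571%, 0.842% and 0.456%, and treated resistant ones 266, 340 and 209, or 0.454%, 0.713% and 0.388%. By share, the 3 treated parental libraries stood above all other libraries, while the ranges of the 2 untreated groups overlapped. By number of peaks, treated parental replicate 1 (584) was below untreated parental replicate 3 (601). In the stretch the parental libraries averaged 1.04% ± 0.274 (SD, n = 6) and the resistant libraries 0.571% ± 0.175 (SD, n = 6), a ratio of 0.548. The stretch took up 29.7% to 50.8% of a parental library's peaks on the chromosome and 19.3% to 35.8% of a resistant one's.

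**Figure D1:**
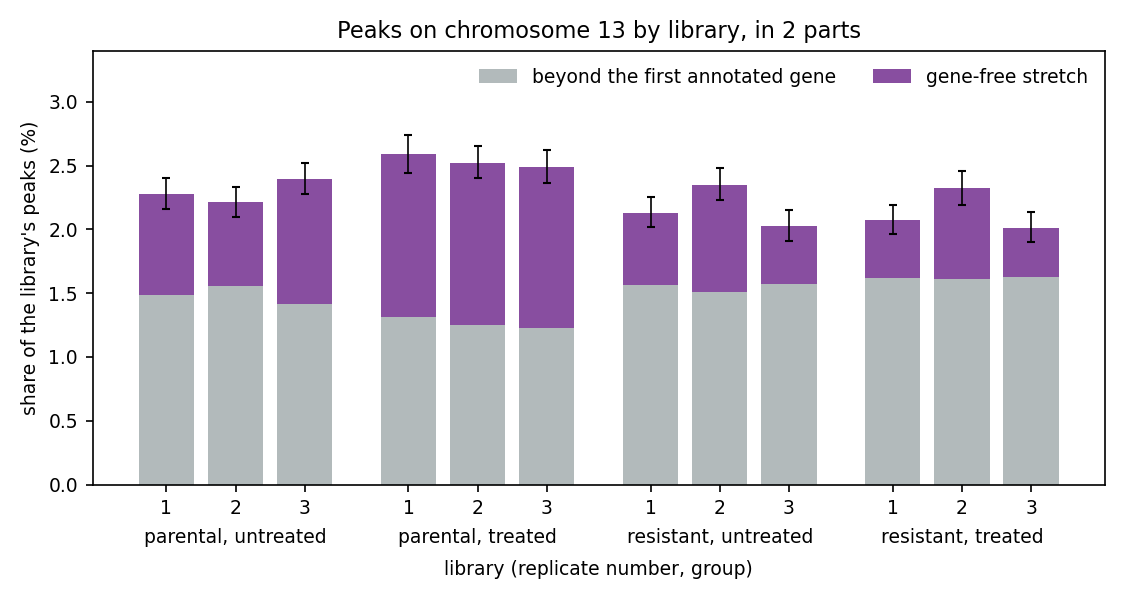
Share of each library's peaks on chromosome 13 in percent (bars from 0), split into the rest of the chromosome (grey) and the gene-free stretch (purple), with exact 95% intervals of the whole share. The grey part is lowest in the 3 treated parental libraries (1.23% to 1.31%), where the purple part is highest.

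Beyond the stretch the order of the phenotypes was the opposite. The share there was 1.49%, 1.56% and 1.42% in untreated and 1.31%, 1.25% and 1.23% in treated parental libraries. In resistant libraries it was 1.56%, 1.51% and 1.57% untreated and 1.62%, 1.61% and 1.63% treated. Treated parental libraries were below all others, treated resistant libraries were above all others, and the untreated groups overlapped. In numbers of peaks, the treated parental libraries had 600, 778 and 676 there, against 890, 933 and 872 in the untreated parental, 922, 836 and 828 in the untreated resistant and 948, 767 and 875 in the treated resistant ones.

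Sequencing depth and peak width moved with these shares. Relative depth, recovered from the lists with the shallowest library at 1, was 1.53, 1.33 and 1.77 in untreated and 1.66, 2.77 and 2.38 in treated parental libraries. It was 1.42, 1.85 and 1.01 in untreated resistant libraries and 1.13, 1.10 and 1 in treated resistant ones. In both untreated groups the share in the stretch was higher the deeper the library, from 0.657% to 0.978% in parental and from 0.456% to 0.842% in resistant cells. In the treated groups the order of depths and shares was not the same, with 1.28%, 1.28% and 1.27% in parental and 0.454%, 0.713% and 0.388% in resistant libraries. The smallest peak width of a list was 67 to 87 bp in parental and 94 to 124 bp in resistant libraries. With only peaks of at least 124 bp kept, the resistant minus parental difference for the chromosome was -0.253 percentage points, and with the 45748 top-ranked peaks of each list it was -0.360. The part of depth in these values was not tested.

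The 10-Mb bins of the chromosome placed the lower resistant share in the first bin with peaks. Between 10 and 20 Mb the parental libraries averaged 1.08% ± 0.278 (SD, n = 6) and the resistant libraries 0.596% ± 0.178 (SD, n = 6), a difference of -0.479. In each of the other 10 bins the resistant mean was the higher, while over all 310 bins of the genome 177 (57.1%) had a higher resistant mean. None of the 11 bins was lower in resistant libraries without overlap (2.58% of all bins were), and 2 of 11 were higher without overlap (4.52% of all bins were). Those 2 were the bins from 50 to 60 Mb (0.0874% parental and 0.103% resistant) and from 70 to 80 Mb (0.0911% and 0.111%). As the chromosome was chosen on this contrast, nothing is read from these counts against the genome.

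**Figure D2:**
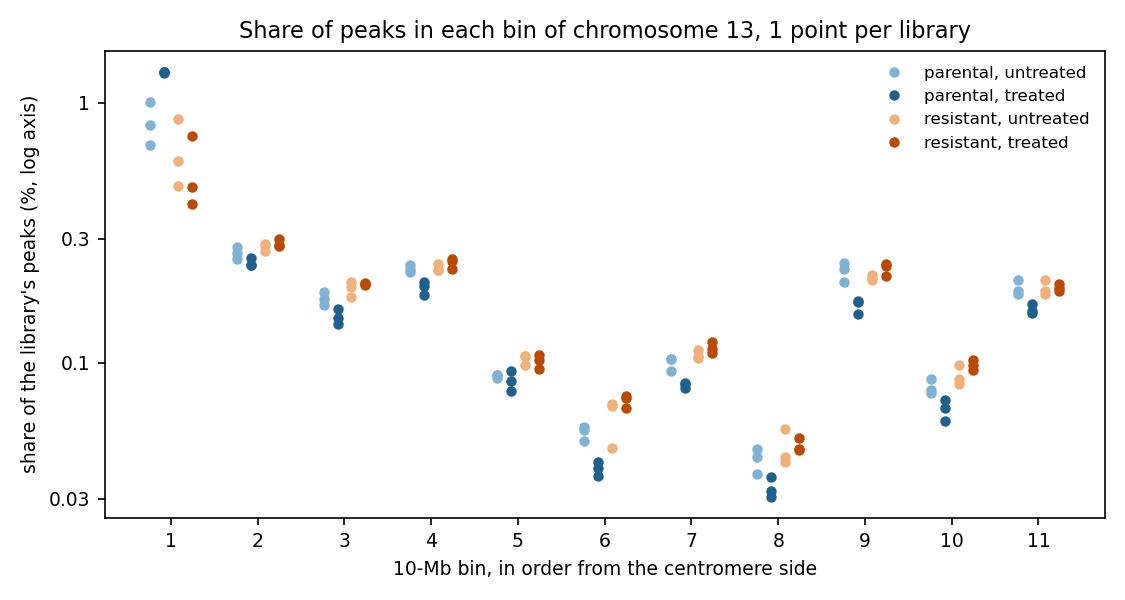
Share of each library's peaks in the 11 bins of 10 Mb that hold peaks on chromosome 13, 1 point per library, on a log axis in percent. In bin 1 the parental libraries reach 1.32% and the resistant ones go down to 0.409%, while in bin 6 the treated parental libraries lie lowest (0.0369% to 0.0417%).

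Among all bins ranked by their fall in resistant libraries, this first bin of chromosome 13 was second. A bin of chromosome 1 (120 to 130 Mb) came before it with the same difference to 3 digits, -0.479. Bins of chromosome 7 (50 to 60 Mb), chromosome 10 (40 to 50 Mb) and chromosome 3 (90 to 100 Mb) followed. Each of these bins also had its highest mean in treated parental and its lowest in treated resistant libraries. These means were 0.915% and 0.482% on chromosome 10, and 0.499% and 0.151% on chromosome 3. The pattern was therefore not particular to chromosome 13, and the position of these bins relative to centromeres was not analysed. The first bin of chromosome 13 was also among the densest of the genome. Of 2921 windows of 1 Mb, the one starting at 17 Mb ranked 3rd by mean number of peaks (275 over 12 libraries) and the one starting at 16 Mb ranked 4th (157), both after 2 windows of chromosome 1. The 17-Mb window averaged 354 peaks in parental and 196 in resistant libraries.

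Within the stretch the peaks were spread over the whole length rather than gathered at an edge. In the 250-kb window lying 250 to 500 kb before the first gene, untreated parental libraries averaged 86 peaks (64 to 110) and treated parental ones 118 (101 to 134). Resistant libraries averaged 61.7 (47 to 83) without the inhibitor and 51.7 (40 to 67) with it. All 7 windows from 250 to 2000 kb before the first gene had the same order of the 4 group means. Past the first gene the counts dropped: the 250 kb after its start held 1 to 7 peaks per library, and from 250 to 750 kb past it no library had a peak. The first protein-coding gene started at 19173772.

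**Figure D3:**
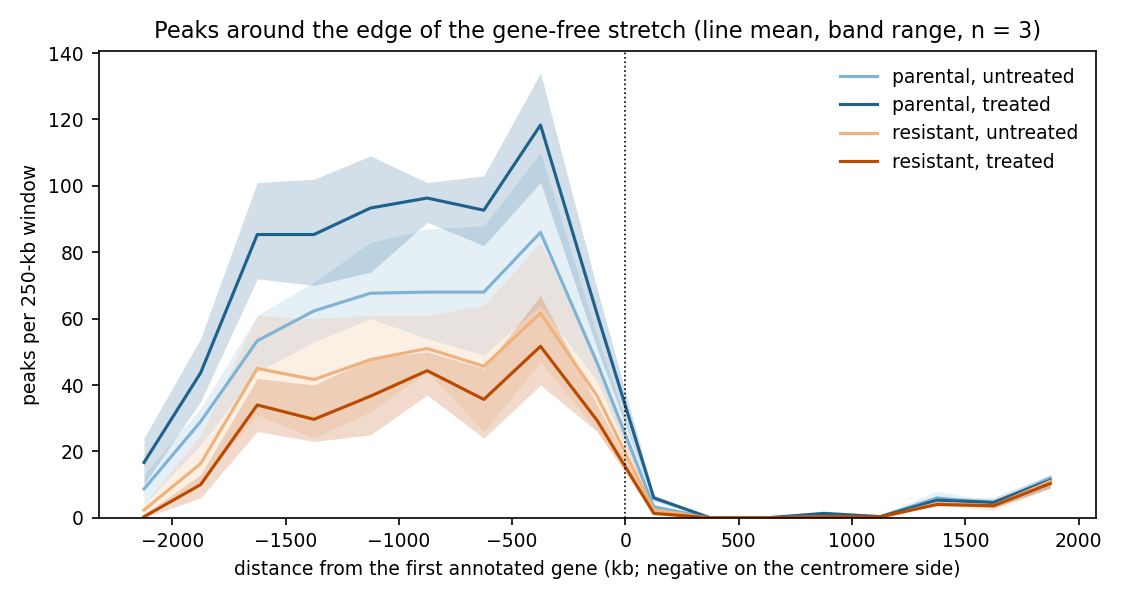
Peaks per 250-kb window against the distance from the first annotated gene in kb (negative at lower positions, inside the gene-free stretch), lines for group means and bands for the range of 3 libraries. Treated parental libraries average 118 peaks in the highest window and treated resistant ones 51.7, and no library has a peak from 250 to 750 kb past the first gene.

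Peaks of the stretch were narrower and had lower folds than those of the rest of the chromosome. Their median width was 148.5 to 207 bp in parental and 208 to 284 bp in resistant lists, against 226.5 to 326 bp and 354 to 482 bp beyond the stretch. The median fold over local background in the stretch was 3.38 to 3.84 in parental and 3.71 to 3.99 in resistant lists, against 3.94 to 5.22 over the 12 lists beyond it. By rank within its own list, from 0 for the best to 100 for the worst q-value, the median peak of the stretch stood at 39.5 to 64.8 in parental and 57.5 to 72.3 in resistant lists, and that beyond it at 43.2 to 48.9 over all 12.

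Treatment was independent of the choice of the chromosome and was tested by two-sided exact permutation of treatment labels within phenotypes (smallest p 0.005), with 10 tests adjusted by Benjamini-Hochberg. The share on chromosome 13 changed by 0.103 percentage points with treatment (exact permutation p = 0.235, adjusted p = 0.261), which did not pass. In parental cells it averaged 2.30% untreated and 2.53% treated, without overlap, and the difference of 0.239 had the smallest p that 3 against 3 libraries allow (exact p = 0.1, adjusted p = 0.21). In resistant cells it averaged 2.17% and 2.14% (difference -0.0323, exact p = 0.7, adjusted p = 0.7). Same-numbered resistant libraries deviated together, and with the number as a replicate block the treated library was lower in 3 of 3 pairs (exact p = 0.25, the smallest that 3 pairs allow, adjusted p = 0.344). The difference between these effects was -0.271 (exact permutation p = 0.105, adjusted p = 0.21). Where a peak's -log10 q had to be 3 or more, it was -0.700 (exact permutation p = 0.025, adjusted p = 0.0833), from treatment differences of 0.530 in parental and -0.170 in resistant cells.

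By segment, the treatment effect itself passed in none of the proximal (to 50 Mb), middle (50 to 90 Mb) and distal (from 90 Mb) parts, with exact permutation p of 0.19, 0.235 and 0.15. The difference between phenotypes in the treatment effect was -0.467 percentage points in the proximal part (exact permutation p = 0.04, adjusted p = 0.133). It was 0.0621 in the middle part (exact permutation p = 0.01, adjusted p = 0.05) and 0.134 in the distal part (exact permutation p = 0.005, adjusted p = 0.05), and neither went below 0.05. The same difference had an unadjusted exact permutation p under 0.05 in 59 of the genome's 310 bins. In the distal part the share averaged 0.499% untreated and 0.393% treated in parental cells, and 0.496% and 0.524% in resistant cells.

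The stretch and the rest moved in opposite directions with treatment. In parental cells the mean share in the stretch was 0.809% untreated and 1.27% treated, and that beyond it 1.49% and 1.26%. In resistant cells the stretch averaged 0.623% and 0.519%, and the rest 1.55% and 1.62%. The treated parental libraries were also the group with the highest mean relative depth (2.27) and the treated resistant ones that with the lowest (1.08), and the part of depth was not tested. None of the chromosome's 11 bins passed the same test of treatment in either direction, as was so for all 310 bins (0% called higher and 0% called lower). With adjustment over 310 bins, no bin could pass unless many bins reached the smallest p that this permutation allows. The absence of called bins therefore decides nothing about treatment in single bins. At an unadjusted exact permutation p under 0.05, 11 of all bins were higher and 15 lower, and none of these was on chromosome 13.

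Merging overlapping peaks of the 12 lists gave 2990 regions on chromosome 13 of 178040 in all. Of the 1059 regions in the stretch, 88 (8.31%) were called in all 12 libraries and 279 (26.3%) in 1 library. Of the 1931 beyond it, 388 (20.1%) were called in 12 and 833 (43.1%) in 1. Over all chromosomes 13.6% were called in 12 and 59.5% in 1, so the stretch had relatively many regions called in some of the libraries.

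**Figure D4:**
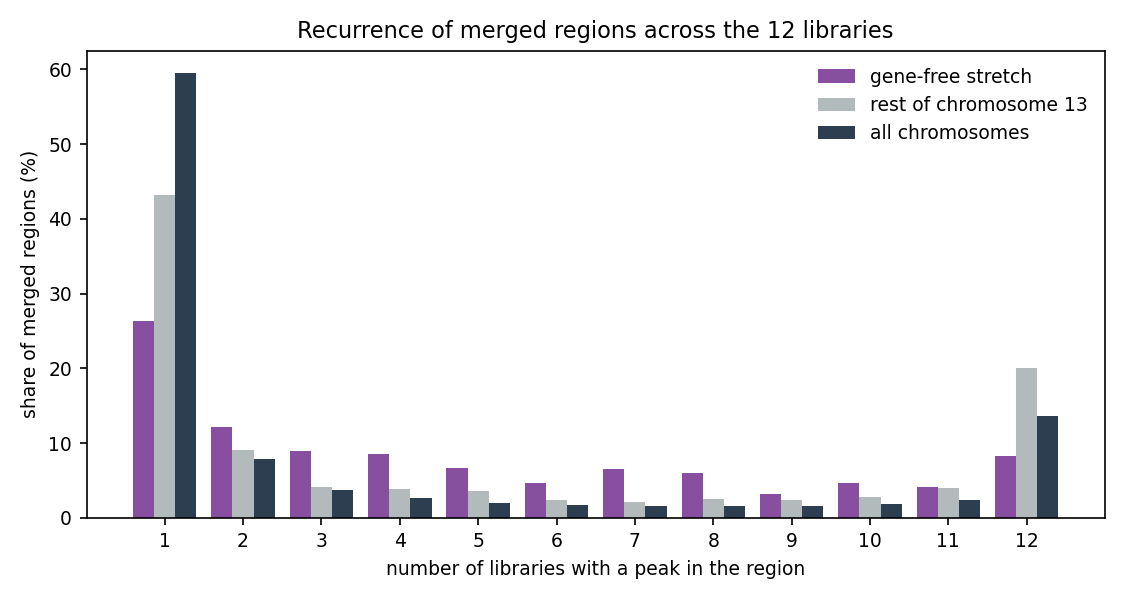
Share of merged regions, in percent, by the number of libraries (1 to 12) with a peak in the region, for the gene-free stretch, the rest of chromosome 13 and all chromosomes. Regions called in all 12 libraries make up 8.31%, 20.1% and 13.6%.

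A region was taken to appear with treatment if 0 of 3 untreated and 3 of 3 treated libraries called it, and to disappear in the reverse case. With treatment of parental cells, 22 of 2488 regions appeared (0.884%, against 0.153% over all chromosomes). They were 21 of 1016 regions in the stretch and 1 of 1472 beyond it. At the same time 39 disappeared (1.57%, against 1.21%), 1 of the 1016 and 38 of the 1472. In resistant cells 2 of 2038 appeared (0.0981%, against 0.239%), 1 of 631 in the stretch and 1 of 1407 beyond it. There 11 disappeared (0.54%, against 0.276%), 8 of the 631 and 3 of the 1407. Mean relative depth was highest in the treated parental and lowest in the treated resistant group, and its part in these counts was not tested. Fisher's exact test of 6 treated against 6 untreated libraries, over regions called in 5 to 7 libraries, passed for 0 of 342 regions on the chromosome (0% of 9507 over all). With 6 against 6 libraries and adjustment over 9507 regions, none could pass unless many split fully by treatment. The test also pooled the phenotypes, so this outcome decides nothing about treatment. At an unadjusted Fisher's exact p under 0.05, 0 of the 342 regions were called more often with treatment (0.0526% over all) and 4 less often (1.17%, against 1.34%).

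The best-ranked regions that appeared with treatment of parental cells were chr13:17849934-17850191 and chr13:16731329-16731431, both in the stretch. The first had folds of 3.54, 3.58 and 3.82 in the treated parental libraries and no peak in the other 9. The best-ranked that disappeared were chr13:97359374-97359749, inside MBNL2, a splicing regulator, and chr13:114146691-114146907, 14068 bp from an end of RASA3, a Ras GTPase-activating protein. The MBNL2 region had folds of 6.05, 5.80 and 3.92 in the untreated parental libraries, none in the treated parental ones, and peaks in 2 of 3 resistant libraries of either treatment.

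By phenotype, 3 of 2990 regions had a peak in every resistant library and in no parental one (0.117% over all regions), and 3 had the reverse (0.0258%). The former were chr13:103883164-103883473, chr13:74287033-74287314 inside KLF12, and chr13:36418017-36418679, 12838 bp from an end of the cyclin gene CCNA1. Their folds in the 6 resistant libraries were 5.21 to 7.02, 3.97 to 6.56 and 4.01 to 5.20, with median ranks of 40.1, 56.0 and 59.6. The latter, at chr13:17144756-17144977, chr13:16365710-16366308 and chr13:16939429-16940022, were all in the stretch. Folds in the parental libraries were lower there, at 3.23 to 5.15, 3.03 to 3.91 and 2.85 to 3.64, with median ranks of 40.4, 64.4 and 69.1. Just outside that rule, 11 regions had a margin of 5 libraries toward resistant cells (0.368%, against 0.348% over all regions) and 22 toward parental cells (0.736%, against 0.119%), values that also belong to the contrast the chromosome was chosen on.

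Regions called in every library were 134 to 3402 bp wide. By best median rank the leading ones were narrow, at 134 to 543 bp, and lay 2210 to 19832 bp from the nearest gene end. Of these, chr13:109424136-109424317 had folds of 24.6 to 33.8 over 182 bp and lay 19832 bp from the nearest gene end. The region chr13:33000503-33000636 had folds of 24.3 to 41.9 over 134 bp. The sequence of these leading regions was not analysed. The 3 widest were 3402 bp at the start of ZIC2, a zinc-finger regulator of neural development, 3162 bp at the start of IRS2, the insulin receptor substrate, and 2802 bp at chr13:79986998-79989799, which lay 21278 bp from the nearest gene end. Their folds were 3.62 to 6.10, 4.00 to 7.62 and 4.29 to 6.57. The median width of all 476 regions called in 12 libraries was 985.5 bp.

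Genes of the chromosome were then read by whether a peak lay within 1 kb of a start site. Of 299 coding genes, 166 (55.5%) had one in all 12 libraries and 94 (31.4%) in none, against 59.7% and 25.0% of the coding genes of the other chromosomes. Mean shares of coding genes with a peak at the start were 63.3% ± 1.54 (SD, n = 3) in parental cells without and 59.1% ± 0.511 (SD, n = 3) with the inhibitor. In resistant cells they were 64.4% ± 0.193 (SD, n = 3) without and 64.3% ± 0.842 (SD, n = 3) with it. The treated parental group was the lowest on the other chromosomes too (63.8% ± 1.33, SD, n = 3). With treatment of parental cells 5 of 196 starts lost their peak in the 3-to-0 sense (2.55%, against 0.711% over all coding genes) and 0 gained one (0.00877%). In resistant cells 0 of 203 were lost (0.08%) and 0 gained (0.0355%).

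The 5 were CDX2, SOX21, KLF12, GPC5 and LRRC63, the last of which is in none of the gene lists and is named after its values were seen. CDX2, a homeobox factor of the intestinal lineage, had folds of 3.58, 3.59 and 3.60 in untreated parental libraries, no peak in treated parental ones, 5.06, 3.50 and 4.29 in untreated resistant and 4.17, 3.38 and 3.90 in treated resistant ones. SOX21, a repressor of the SOX family, had 3.67, 3.46 and 4.32, then none, then 4.77, 3.80 and 5.31, and 4.96, 3.42 and 4.84. These are low folds, and the median CDX2 peak ranked at 66.8 in its list on the scale from 0 to 100. KLF12, a Krüppel-like repressor, had 3.38, 3.65 and 3.17 in untreated parental libraries, none in treated parental ones and 3.90 to 5.26 in the 6 resistant ones. GPC5, a glypican that carries heparan sulfate, had 4.15, 4.12 and 3.34 in untreated parental libraries, none in treated parental ones, a peak in 2 of 3 untreated resistant libraries (4.42 and 4.46) and 3.89, 4.38 and 4.88 in treated resistant ones.

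Among the 94 listed genes, 59 (62.8%) had a peak at the start in 12 libraries, 13 in 1 to 11 and 22 in none. The share over all 299 coding genes of the chromosome was 55.5%, and the lists were chosen by topic. Of 17 genes of cell cycle and DNA repair, 16 (94.1%) were called in all 12. RB1, the restrainer of E2F factors (folds 4.03 to 8.98), and LATS2, a kinase of the Hippo pathway (5.96 to 9.17), were among them. So was TFDP1, the partner of E2F factors (3.36 to 7.33), while CCNA1, a germline cyclin, was called in none. Of 22 genes of metabolism, transport and mitochondria, 18 (81.8%) were called in 12. Examples were SUCLA2, a succinyl-CoA synthetase subunit (4.59 to 9.86), and CARS2, the mitochondrial cysteinyl-tRNA synthetase (7.40 to 9.46). Another was SLC7A1, a carrier of cationic amino acids (4.98 to 10.9). SKA3 of the cell cycle list and MRPL57 of this one were given the same peak, so their values are not separate.

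Of 20 genes of receptors and signalling, 12 (60.0%, against 55.5% of the chromosome's coding genes) were called in 12 libraries and 6 in none. SPRY2, an inhibitor of receptor tyrosine kinase signalling, had folds of 5.57 to 7.38, and EFNB2, an ephrin ligand, 6.71 to 9.64. FLT1, a receptor of vascular endothelial growth factor, had a peak in 1 of 3 untreated and 1 of 3 treated parental libraries and in 2 of 3 untreated and 3 of 3 treated resistant ones. GAS6, a ligand of the TAM receptors, was called in 2, 1, 3 and 3 libraries of these groups in the same order. COL4A1 and COL4A2, chains of basement membrane collagen, face each other over a shared promoter and were given the same peak, so their values are not separate.

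Of 17 transcription factors 8 (47.1%, against 55.5% of the chromosome's coding genes) were called in 12 libraries, 6 in 1 to 11 and 3 in none. PDX1, a regulator of pancreas development, had a peak in all 12 with folds of 4.44 to 9.82, read at either end of the gene for want of a listed start site. FOXO1, the forkhead factor that insulin signalling keeps out of the nucleus, had 4.56 to 7.77, and KLF5, a Krüppel-like activator of epithelial growth, 6.57 to 10.8. SMAD9, a mediator of bone morphogenetic protein signals, was called in 2 untreated and 1 treated parental library and in all 6 resistant ones. POU4F1, GSX1 and SOX1, developmental factors of the nervous system, were listed in none.

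Of the 15 genes listed under neural adhesion in gene-poor stretches, 2 (13.3%, the lowest share of the lists) were called in all 12 libraries. Another 4 were called in 1 to 11 and 9 in none. The 2 were PCDH9, a protocadherin (5.54 to 8.91), and DIAPH3, a formin of the actin cytoskeleton rather than a neural adhesion gene (7.75 to 10.9). The SLITRK1, SLITRK5 and SLITRK6 genes of synaptic adhesion were called in none. NBEA, a neuronal trafficking protein, had a peak in 1 untreated parental library and in 3 of 3 of every other group. Its 10-Mb bin holds 45 coding genes, so not every listed gene lies in a gene-poor stretch. The 3 non-coding genes, MIR17HG, the host of an oncogenic microRNA cluster, and DLEU1 and DLEU2, of a segment often deleted in leukaemia, were called in 12 libraries. Across the 10 bins from 20 Mb on, the number of coding genes and the mean number of peaks went together (Pearson r = 0.867, Spearman rho = 0.851, n = 10 bins that share their libraries, a description with no test).

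**Figure D5:**
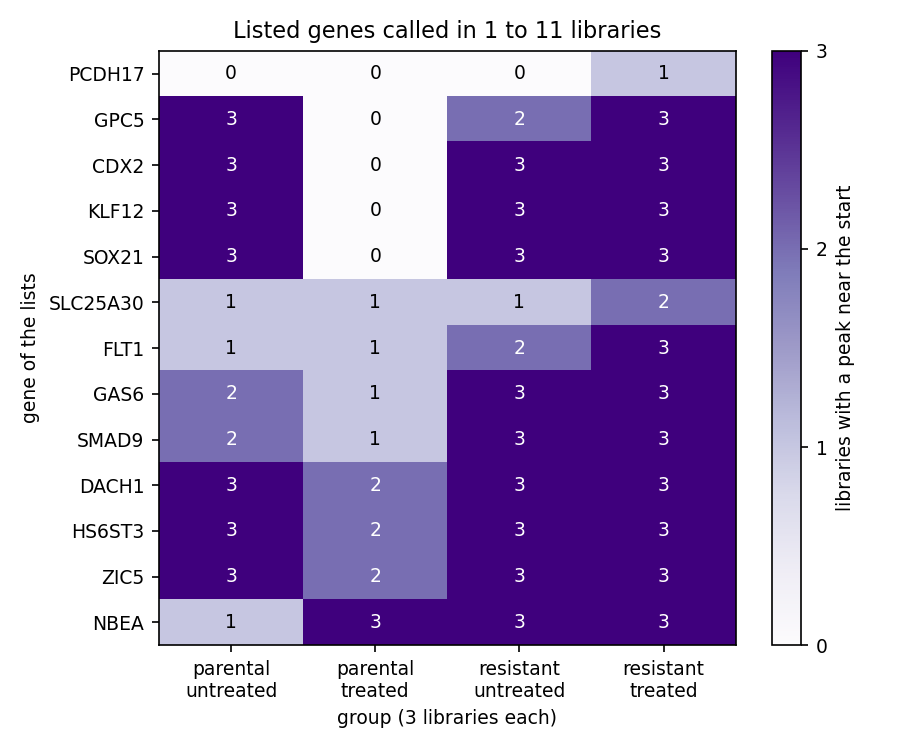
Number of libraries of each group (0 to 3, by shade and digit) with a peak within 1 kb of the start, for the 13 listed genes called in 1 to 11 libraries. CDX2, SOX21 and KLF12 have 3 in every group but treated parental, where they have 0.

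Against the other chromosomes, properties that the choice did not use were compared within each library by two-sided exact sign-flip permutation over 12 libraries. They belong to the same peaks that the choice counted, and all 12 libraries share 1 genome and annotation. The p-values therefore measure only how steadily the libraries repeat a difference, and the smallest that 12 libraries allow is 0.000488. Of the peaks on chromosome 13, 17.6% to 26.9% lay no more than 1 kb from a gene end, fewer than on the others in 12 of 12 libraries, by -8.49 percentage points ± 2.42 (SD, n = 12, exact permutation p = 0.000488, adjusted p = 0.00146). The median width was lower in 11 of 12, by -22.5 bp ± 10.5 (SD, n = 12, exact permutation p = 0.000977, adjusted p = 0.00146). The median rank did not pass (1.10 ± 4.82, SD, n = 12, exact permutation p = 0.436, adjusted p = 0.436). Without the gene-free stretch the first 2 differences had the opposite sign in 12 of 12 libraries, at 3.70 percentage points and 33.7 bp, and the median rank was better by -4.13 in 12 of 12, values given as a description because the stretch was set apart after the data were seen.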

How the data were processed

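Broad peaks of 12 ATAC-seq libraries (GRCh38) were used. The authors aligned reads with Bowtie2 2.1.0, dropped reads that were mitochondrial, duplicated or not unique, and called peaks per library with MACS2 in paired-end mode; its version, genome size, control and blacklist are not given in the sources used here. Per peak the authors deposited a score, a fold over local background, and the -log10 p and -log10 q. The deposited lists hold no read counts, so a count test could not be run. Peaks were ranked and filtered within their own list. Folds printed for several libraries are each relative to that library's background and were not normalised between libraries.

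Peaks on chromosomes 1 to 22 and X were kept (0.892% of 677901 left out) and placed by midpoint. Shares of peaks per chromosome, segment and 10-Mb bin were compared by exact permutation, and regions (peaks merged at 1 bp of overlap) by presence, with Benjamini-Hochberg adjustment, in Python 3.11.15 with SciPy 1.17.1; tests were tried on simulated data. Absolute depth is unknown. Relative depth came from the most frequent fold and -log10 p of each list and its smallest width. Gene starts were all RefSeq start sites of a gene plus its outer 5' end. Lists with 94 genes were named by topic; regions were named by best median rank or largest width. The members, lists and stretch were chosen with earlier results of these data known. Alternatives covered q, width, equal list sizes, covered bases, other bins and distances, a replicate block and each library left out.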

Additional observations from a re-analysis of the deposited data

Results flagged for a closer look

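The treatment effect on the share of peaks differed between resistant and parental cells, at an unadjusted exact permutation p under 0.05, in all 3 segments of chromosome 13. The difference was -0.467 percentage points in the proximal segment (exact permutation p = 0.04, adjusted p = 0.133), 0.0621 in the middle one (exact permutation p = 0.01, adjusted p = 0.05) and 0.134 in the distal one (exact permutation p = 0.005, adjusted p = 0.05). None of the adjusted values went below 0.05. Group means in the middle segment were 0.286% and 0.240% in untreated and treated parental cells and 0.320% and 0.336% in resistant ones. Mean relative depth was highest in the treated parental group (2.27) and lowest in the treated resistant group (1.08), with overlap between groups in single libraries, and its part was not tested.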

How the results depend on the processing

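Of 302 recomputed values, 255 kept their direction and side of the threshold, 15 changed direction and 29 moved. Another 3 changed sides of the threshold in the same direction, 2 of these without the gene-free stretch. Some of the 15 changed sides as well, among them the chromosome's interaction without the stretch. Most changes of direction came from leaving out peaks of the gene-free stretch or peaks beyond 100 kb from a gene, alternatives chosen after seeing the data. Without the gene-free stretch the chromosome's phenotype difference was 0.203 percentage points, the treatment effect -0.0754, that in parental cells -0.221, that in resistant cells 0.0707 and the interaction 0.292. The proximal segment then gave 0.0769 by phenotype, -0.0221 by treatment and 0.0987 for the interaction, and the middle and distal interactions were 0.0611 and 0.132. With only peaks within 100 kb of a gene the values for the chromosome were 0.165 by phenotype, -0.0590 by treatment, -0.183 in parental, 0.0654 in resistant cells and 0.249 for the interaction. These changes follow from the peaks left out, and as those were set apart with the peaks seen, the values are a description and support no call.

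With peaks of at least 124 bp the middle segment's phenotype difference was 0.0459, no bin was higher in resistant libraries without overlap (0 in place of 2), and the rank difference from other chromosomes passed at 2.87. That count of bins was 1 with 5-Mb bins and 1 with -log10 q of at least 3. Regions that appeared with treatment numbered 10 in parental and 1 in resistant cells with -log10 q of at least 3, and 12 in parental cells where peaks had to cover 50% of the region. With -log10 q of at least 3 the treatment effect on the chromosome was 0.180 and that on the middle segment -0.0348, and the proximal interaction -0.865. The treatment difference in resistant cells lay between -0.170 and -0.0493 over the filters on q and width, equal list sizes and covered bases, and the interaction with equal list sizes was -0.407. The cause of these moves was not tested.

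Leaving out each library in turn, the treatment difference in resistant cells ran from -0.125 to 0.0588, changing sign without untreated replicate 2 (0.0588) and without treated replicate 3 (0.0289). With 2 libraries in place of 3 in a group, 35 to 63 regions appeared and 48 to 79 disappeared in parental cells, and 7 to 18 and 15 to 43 in resistant cells, since fewer libraries have to share a state. The chromosome's phenotype difference ran from -0.303 to -0.228, its treatment effect from 0.0569 to 0.149 and its interaction from -0.363 to -0.180.

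Over all 10-Mb bins, deviations of same-numbered libraries correlated at -0.0804, -0.437 and 0.475 in parental cells, where the numbers did not pair the libraries, and at 0.445, 0.663 and 0.657 in resistant cells, where every pair was above 0.1. With a replicate block over both phenotypes the treatment effect was the same 0.103 (exact permutation p = 0.281, adjusted p = 0.344), that for the interaction was -0.271 (exact permutation p = 0.0312, adjusted p = 0.0781), and no call changed.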
